A study of Mus musculus with 19 samples.

Results

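The regions described here are the distal Bcl11b peaks of late Th2 cells that overlap no GATA3 peak. They were chosen by the presence and position of called peaks in the authors' 3 peak lists of wild-type late Th2 cells, so peak presence, overlap and distance are descriptions here and are not tested. A Bcl11b peak was included when it shared no base with a peak of the input library and no base with a GATA3 peak. Its midpoint also had to lie more than 1000 bp from the nearest listed transcription start. This left 5432 of 17459 Bcl11b peaks (31.1%), of which 4 (0.0736%) still covered the listed start. The remaining Bcl11b peaks were 5507 distal peaks with a GATA3 peak, 3169 promoter peaks without one, 1154 promoter peaks with one and 2197 peaks on an input peak. The GATA3 list held 28612 peaks and the input list 9912.

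Bcl11b is a zinc finger transcription factor that commits precursors to the T cell lineage and later represses genes of other T helper and innate-like programmes, in part through chromatin-modifying complexes. GATA3 is the transcription factor that defines the T helper 2 (Th2) lineage, the CD4 T cells that make IL-4, IL-5 and IL-13. Binding far from a start is typical of enhancers and silencers, and the gene such an element acts on need not be the nearest one.

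The RNA comparisons used 16 libraries, 2 in each of 8 groups. Late Bcl11b KO cells came from naive CD4 T cells of Bcl11bfl/fl-CreERT2 mice that were primed under Th2 conditions for 4 days, rested in IL-2 for 1 day and cultured under Th2 conditions for 4 more days with 4-OHT, the tamoxifen metabolite that activates CreERT2. The matched late WT cells carried the same floxed alleles and Cre and received no 4-OHT. Early Bcl11b KO and early WT cells of the same mice had 4 days of Th2 culture with or without 4-OHT, so at both stages deletion and drug cannot be told apart. Late and early Gata3 KO cells and their WT cells are labelled only by gene and stage, with no word on the deleting allele in the sources used here. The Bcl11b, GATA3 and input ChIP libraries came from late WT cells, 1 library each, so no peak has a replicate.

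The 8 libraries of the Bcl11b experiment held 4687559 to 14577958 gene reads each, and the 8 of the Gata3 experiment 5117529 to 9892744. Both early WT libraries beside Bcl11b KO were unlike the rest: genes held 20.7% and 16.9% of the total reads implied by the deposited values, against 40.7% to 60.3% in the other 14 libraries. Their rate over olfactory and vomeronasal receptor transcripts, which T cells do not use, was 3.73 and 4.82 reads per kb, against 0.502 or less in the other 14. Th2 marker RPKM (Cd4, Cd3e, Gata3, Il4, Il5, Il13) summed to 2340 to 2830 in late Bcl11b KO and 1570 to 1790 in late WT. Of these 6 markers, 4 were higher and 1, Gata3, was lower in both late KO libraries. The early sums were 613 to 654 in early Bcl11b KO and 150 to 192 in early WT. In early KO the median of all genes was also higher, by 1.14 on log2(RPKM + 0.1). The 4 B cell markers summed to 5.79 to 7.55 RPKM in late Bcl11b KO and 1.29 to 1.68 RPKM in late WT. The 4 macrophage and dendritic cell markers summed to 3.76 to 5.98 RPKM in late Bcl11b KO and 1.41 to 1.58 RPKM in late WT. All 4 markers of both lists were higher in both late KO libraries than in both late WT libraries, and their part in the results below was not tested. Bcl11b mRNA itself was 75.6 and 137 CPM (gene reads scaled to a common library size) in late KO and 140 and 181 CPM in late WT, and these values nearly met (log2 fold change -0.59 ± 0.28, edgeR adjusted p = 0.421). In early KO it was 66.5 and 54.1 CPM, against 126 and 128 CPM in early WT (-1.08 ± 0.28, edgeR adjusted p = 0.0232). The sources used here do not name the deleted exons, so reads outside them do not test the labels.

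No genome was used, so the sequences that could be read are those of RefSeq promoter windows (build GRCm38.p6, the mm10 coordinates of the files) that lie wholly inside a peak. There were 93 such windows in the distal peaks without GATA3. Of these peaks, 126 (2.32%) touch a RefSeq promoter, as do 2.29% of the distal peaks with GATA3. The authors' gene list places no start within 1000 bp of the midpoint of these peaks. The windows of 3 high-scoring peaks, taken where the peak's summit lies inside the window, and the window of Gata2, a GATA family member chosen after its values were seen, are shown because they display the base composition of these windows. Each runs 5′ to 3′ on the gene's strand, from 250 bases before to 50 bases after the RefSeq start. Capitals mark GGGCGG (the motif of KLF and SP factors), CCAAT (NF-Y), AGGAAG (ETS factors), a CTCF core, or the GATA motifs AGATAA and, in a second form, TGATAA, on either strand.
Sipa1l2, chr8:125569814-125570113, minus strand: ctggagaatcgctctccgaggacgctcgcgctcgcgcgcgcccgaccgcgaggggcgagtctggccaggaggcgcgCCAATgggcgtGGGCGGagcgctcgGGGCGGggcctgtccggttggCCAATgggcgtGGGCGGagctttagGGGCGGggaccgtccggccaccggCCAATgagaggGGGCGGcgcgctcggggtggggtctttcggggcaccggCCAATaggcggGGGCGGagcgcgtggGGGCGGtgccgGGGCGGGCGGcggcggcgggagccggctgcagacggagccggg
Gm38293, chr1:180768607-180768906, minus strand: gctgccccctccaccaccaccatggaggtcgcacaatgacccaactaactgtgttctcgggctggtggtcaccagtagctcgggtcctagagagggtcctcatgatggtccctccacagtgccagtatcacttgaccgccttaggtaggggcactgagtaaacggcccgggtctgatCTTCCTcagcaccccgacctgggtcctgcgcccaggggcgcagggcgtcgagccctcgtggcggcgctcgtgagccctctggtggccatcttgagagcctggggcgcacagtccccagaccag
Nt5dc2, chr14:31130839-31131138, plus strand: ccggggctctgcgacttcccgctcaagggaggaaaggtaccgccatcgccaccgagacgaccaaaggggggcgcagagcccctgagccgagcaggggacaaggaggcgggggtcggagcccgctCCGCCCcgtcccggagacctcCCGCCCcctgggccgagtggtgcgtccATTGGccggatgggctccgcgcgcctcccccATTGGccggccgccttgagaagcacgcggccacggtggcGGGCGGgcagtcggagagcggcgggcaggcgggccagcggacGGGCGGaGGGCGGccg
Gata2, chr6:88193641-88193940, plus strand: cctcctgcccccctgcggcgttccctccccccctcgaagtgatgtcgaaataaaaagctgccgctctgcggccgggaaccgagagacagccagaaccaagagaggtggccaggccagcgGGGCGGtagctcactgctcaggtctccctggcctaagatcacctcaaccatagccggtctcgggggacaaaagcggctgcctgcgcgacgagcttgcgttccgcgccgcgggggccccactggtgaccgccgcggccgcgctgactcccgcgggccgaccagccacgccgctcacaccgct

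The Sipa1l2 window lies in a peak with a score of 520.56 whose nearest listed start, 14678 bp away, belongs to another gene. It is 78.7% G and C and holds GGGCGG 9 times and CCAAT 4 times. The Nt5dc2 window (peak score 360.11) holds GGGCGG 5 times and CCAAT 2 times, the Gm38293 window (374.4) holds neither and 1 AGGAAG, and the Gata2 window (221.52) holds 1 GGGCGG. None of the 4 holds a GATA motif.

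Over all 93 windows, AGATAA occurred in 5.38%, against 20.2% of 99 windows inside distal peaks with GATA3, 2.80% of 2535 windows inside promoter peaks without GATA3 and 11.2% of all 32817 promoter windows. TGATAA followed the same order, in 6.45% of windows without GATA3, 12.1% of distal windows with GATA3, 2.17% of promoter-peak windows and 9.06% of all windows. GGGCGG stood in 48.4% of the windows, against 27.3%, 73.9% and 35.6% in the same 3 sets. CCAAT stood in 39.8%, against 29.3%, 36.1% and 37.4%. The ETS motif AGGAAG stood in 40.9%, against 47.5%, 29.9% and 35.4%. The RUNX motif TGTGGT stood in 14.0%, against 25.3%, 12.3% and 16.8%. The CTCF core stood in 5 of the 93 windows (5.38%), against 1.01%, 3.59% and 1.15%. Mean G and C content was 59.7%, against 54.5%, 64.4% and 53.8%, so windows that differ in motif share also differ in base composition. These windows are promoters of a few peaks and do not stand for the 5432 regions, and all shares are descriptions with no test. The 93 windows belong to 83 genes and some overlap, so 1 site can count in more than 1 window. Of the other motifs searched, AP-1 (TGANTCA) stood in 8.60% of the 93 windows and 7.81% of all promoter windows, STAT (TTCNNNGAA) in 2.15% and 8.29%, and the IRF motif in 1.08% and 3.43%. E-boxes (CANNTG) stood in 57.0% and 72.3%, their E protein form (CAGCTG) in 17.2% and 16.3%, the Bcl11 motif (TGACCA) in 10.8% and 13.6%, and the TCF and LEF motif (CTTTGA) in 15.1% and 16.0%. Longer ETS (CCGGAAG) and RUNX forms stood in 12.9% and 3.23%, against 8.86% and 1.78% of all promoter windows. All were searched on both strands and can overlap one another.

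The distal peaks without GATA3 had the lowest median score and length of the 4 classes off input, by the authors' values. Their median score, a scaled negative log10 of the peak caller's p, was 74.0, against 102 for distal peaks with GATA3, 106 for promoter peaks without GATA3 and 145 for promoter peaks with GATA3. Median length was 620 bp, against 822 bp for distal peaks with GATA3, and median reads per peak were 18, against 29. Median fold enrichment was 3.01, against 3.17 for distal peaks with GATA3, and against 2.76 and 2.88 for promoter peaks without and with GATA3, so by fold they stood above both promoter classes. A score of at least 100 was reached by 1395 of them (25.7%), against 51.2% of the distal peaks with GATA3. Of the distal peaks off input, 64.0% of those scoring 50 to 60 lacked a GATA3 peak, against 21.8% of those scoring 250 or more. By length, 75.2% of distal peaks under 500 bp and 25.7% of those of 1500 bp or more lacked one. A longer peak has more bases on which to meet a GATA3 peak, and that contribution was not tested.

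**Figure D1:**
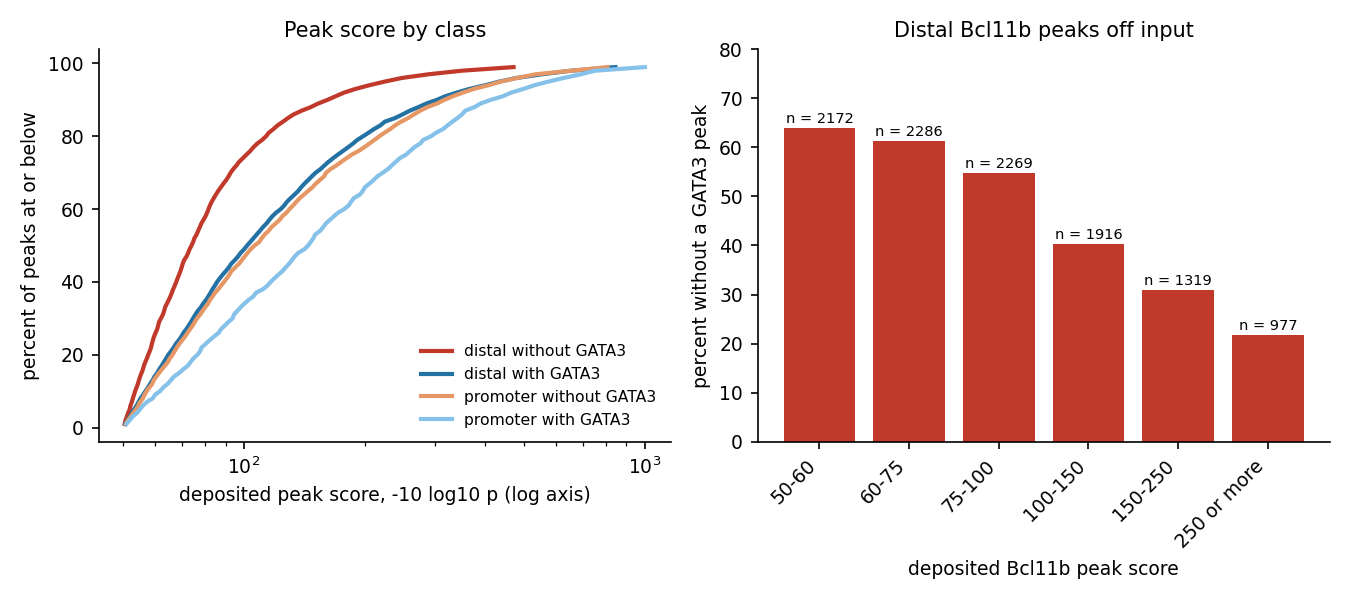
Left, cumulative percent of Bcl11b peaks at or below each deposited score (log axis) for the 4 peak classes off input. Right, percent of distal Bcl11b peaks without a GATA3 peak in each score bin, with the number of distal peaks above each bar. The distal peaks without GATA3 lie farthest left, with a median of 74.0, and the bars fall to 21.8% in the highest bin.

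The absence of an overlapping GATA3 peak did not mean distance from GATA3. The median gap to the nearest GATA3 peak was 9877.5 bp. Within 500 bp there was a GATA3 peak for 347 peaks (6.39%), within 1000 bp for 625 (11.5%) and within 10000 bp for 2722 (50.1%). No called peak is not a measurement of no GATA3 binding, since the GATA3 list is 1 library with its own threshold.

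The median distance to the nearest listed start was 17986 bp, against 22669 bp for distal peaks with GATA3, and 45.3% of the regions lay 10000 to 50000 bp away. Of the 5432, 3135 (57.7%) had their midpoint inside a protein-coding gene, against 53.2% of distal peaks with GATA3. In 946 of those 3135 (30.2%) the host was a gene other than the one with the nearest start. At the threshold, the nearest peaks inside were those of Pds5a, Arl6ip5 and Wfikkn2, at 1006, 1007 and 1010 bp with scores of 68.27, 79.33 and 57.3. The nearest outside were those of Irgm1, Sh3rf3 and Smad2, at 998, 999 and 1000 bp with scores of 92.27, 63.52 and 103.34. By chromosome, the share of distal peaks lacking GATA3 ran from 43.0% on chromosome 12 to 58.4% on chromosome 19, apart from chromosome Y with 3 of 3.

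The strongest regions lay within gene bodies, often of a gene other than the nearest by start. Of the 10 highest by score, all 10 lay inside an annotated gene and in 6 the host was not the nearest gene by start. The highest 3 share a score of 3100. They were a peak in Ctif with Gm10532 as the nearest start (fold enrichment 25.6), chr19:42011579-42013161 in Ubtd1 with Ankrd2 nearest (21.08), and chr9:121697405-121698393 in Sec22c, which encodes a vesicle transport protein (18.93). Next came chr3:127697625-127698978 in Alpk1, an innate immune kinase, with Neurog2 nearest (score 1339.21). A peak at chr11:82929866-82933591 near Slfn5, a Schlafen family gene, scored 1188.14, and a peak in Cacna1a near Ier2, an immediate early gene, scored 1097.2. The peak at chr12:80112108-80116385 was 4278 bp wide, with its midpoint 1234 bp upstream of the Zfp36l1 start. It held a RefSeq promoter window of Zfp36l1, so it covered that gene's RefSeq start. ZFP36L1 is an RNA-binding protein that promotes decay of AU-rich mRNAs. The nearest GATA3 peak to these 10 was 4188 bp away at Sec22c and 73171 bp away at Zfp36l1, the ends of the range.

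The 5432 regions had 3990 nearest genes, of which 3031 had 1 region, 660 had 2 and 299 had 3 or more. For 1733 genes (43.4%) such regions were the only Bcl11b peaks. A further 1410 genes (35.3%) were also nearest to a distal Bcl11b peak with GATA3, and 1083 (27.1%) had a Bcl11b promoter peak. GATA3 peaks off input were nearest to 2825 (70.8%) of them.

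The 6 genes with most regions included 5 transcriptional regulators. Maf, a transcription factor of IL-4 and IL-10 expression, had 10. Gata3 itself and Nfil3, a basic leucine zipper factor of type 2 and innate lymphoid cells, had 9 each. Cd47, the surface ligand of SIRP alpha, Satb1, a chromatin organiser of T cells, and Bach2, a repressor of effector programmes, had 8 each. All 6 also carried distal Bcl11b peaks with GATA3, 15 at Maf, 13 at Gata3, 6 at Nfil3, 12 at Cd47, 8 at Satb1 and 10 at Bach2.

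At Maf the 10 regions ran over 737759 bp, 2 of them upstream of the start (-140.7 and -120.6 kb) and the others 8.0 to 596.4 kb downstream. The highest, chr8:115233636-115234822 at 472.7 kb, scored 274.19, and the other 9 scored 53.07 to 174.05. The 3 regions at 472.7, 546.8 and 596.4 kb had their midpoints inside a protein-coding gene other than Maf. A GATA3 peak lay within 1000 bp of 4 of the 10 regions, the closest 30 bp away.

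At Gata3 the 9 regions lay 6.2 to 309.7 kb downstream of the start. The highest, chr2:9857853-9858960 at 20.2 kb and inside the gene, scored 202.22. A group of 3, at 303.9, 308.0 and 309.7 kb, scored 97.86, 50.63 and 59.75. A T cell enhancer of Gata3 far downstream of the gene is known in the mouse, and whether these regions belong to it was not tested. Of the 9, 4 had a GATA3 peak within 1000 bp.

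Nfil3 carried the largest group of neighbouring regions. Of its 9, 6 lay within 16416 bp at chr13:52962390-52978805, 2.6 to 18.2 kb downstream of the start, with scores of 50.12 to 115.87. Of Cd47's 8, all lay inside the gene, and the highest, chr16:49857391-49858263 at 2.2 kb, scored 312.13 with a GATA3 peak 274 bp away. Satb1's 8 scored 57.89 to 195.39 and Bach2's 52.85 to 146.92. Such density was rare: joining regions with gaps of up to 10000 bp gave 4862 groups, of which 4382 held 1 region and 67 held 3 or more (224 regions, 4.12%). Groups of 5 stood at Tsc22d3, the glucocorticoid-induced leucine zipper gene, at Actb with Fbxl18, and at Batf, an AP-1 family factor, where the highest score was 57.86.

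**Figure D2:**
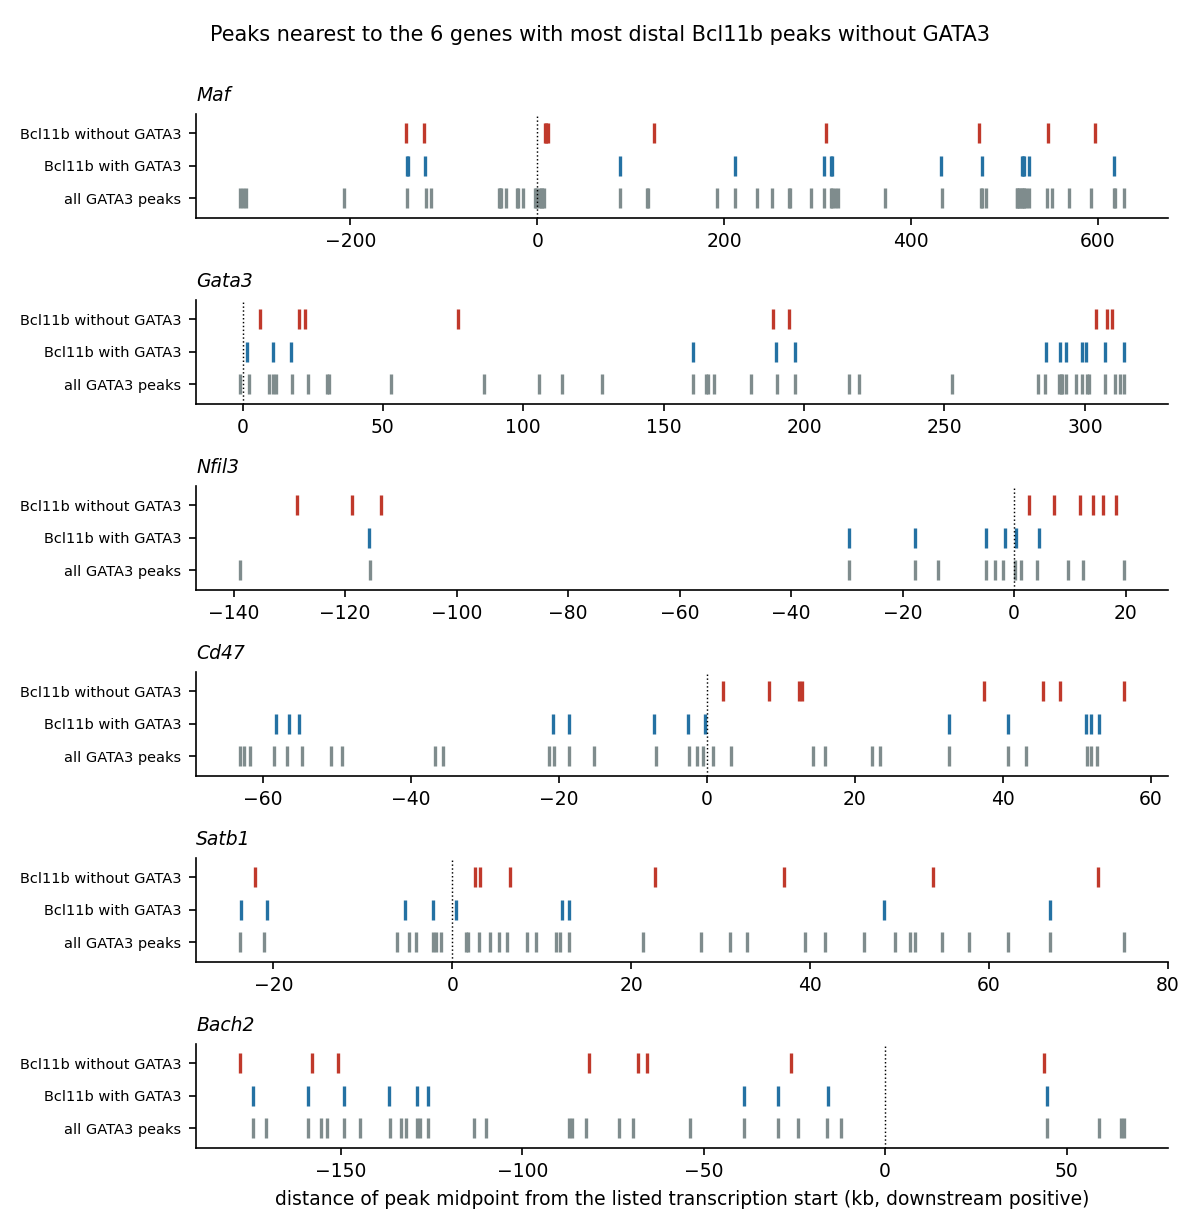
Peak midpoints in kb from the listed transcription start (dotted line, downstream positive) at the 6 genes with most distal Bcl11b peaks without GATA3. Top marks in each panel are Bcl11b peaks without GATA3, middle marks are Bcl11b peaks with GATA3, bottom marks are all GATA3 peaks off input nearest to that gene. The 10, 9, 9, 8, 8 and 8 regions at Maf, Gata3, Nfil3, Cd47, Satb1 and Bach2 are interspersed with the marks below them.

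The first RNA comparison asks how the genes nearest to these regions differ in late Bcl11b KO cells, the stage of the ChIP. Of the 3990 nearest genes, 3502 were in the RNA tables and 2286 passed the filter on low values, 1 RPKM or more in 2 or more libraries. By the quasi-likelihood test of edgeR, adjusted after Benjamini and Hochberg, 73 of the 2286 (3.19%) were called at an adjusted p under 0.05, where all genes tested gave 2.22%. Of these, 56 rose (2.45%, where all genes gave 1.69%) and 17 fell (0.744%, where all genes gave 0.524%). Median log2 fold change was 0.05 over the nearest genes and -0.02 over all 10870 genes tested. Genes nearest to a distal peak with GATA3 were called at 3.80%, and genes with a Bcl11b promoter peak and no distal peak at 1.23%. The sets share genes, their members are not independent, and no set was tested. The nearest genes also had more reads, a median of 4550 over the 8 libraries against 2980 for all genes tested.

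The late count depended on which libraries informed the spread. Fitting only the 4 late libraries gave 442 (19.3%, where all genes gave 14.6%), and leaving out early WT replicate 1 or 2 gave 142 or 143 (6.21% and 6.26%, where all genes gave 4.39% and 4.35%). Leaving out a late library gave 7 without KO replicate 1, 9 without KO replicate 2, 7 without WT replicate 1 and 11 without WT replicate 2, which is 0.306% to 0.481%, where all genes gave 0.184% to 0.331%. Subtracting the receptor read rate from the counts left 49 late calls (2.14%, where all genes gave 1.4%). Each of these p-values measures the spread between 2 libraries a group whose separate origin is not stated. In bulk RNA, fewer cells of a type and less RNA per cell cannot be told apart.

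The rises included S100a4 and Itm2c, the 2 whose calls held without any single library. S100a4, which encodes a calcium-binding protein of motile cells, had 1690 and 1220 CPM in late Bcl11b KO, against 197 and 107 CPM in late WT. The late KO values were all above the late WT ones, at a log2 fold change of 3.26 ± 0.29 (SE, edgeR adjusted p = 0.0006). Its region, chr3:90604914-90605707, lay 1.5 kb downstream of the start with a score of 56.25 and 6683 bp from the nearest GATA3 peak. The adjoining gene S100a5 had a region of its own, chr3:90607165-90607839 (score 81.24), and 20.9 and 18.4 CPM in late KO, against 3.50 and 2.74 CPM in late WT (2.65 ± 0.55, edgeR adjusted p = 0.0432). Itm2c, an integral membrane protein, had 346 and 369 CPM in late KO, against 45.7 and 74.1 CPM in late WT. The late KO libraries were again both higher (2.58 ± 0.24, edgeR adjusted p = 0.000654), and its 2 regions lay upstream, at -40.9 and -30.0 kb, with scores of 270.35 and 121.96.

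Col18a1, which encodes the collagen from which endostatin is released, had the strongest region of the risen genes named here. Its peak at chr10:77130247-77131027 scored 539.19 with a fold enrichment of 9.57, and the nearest GATA3 peak was 22159 bp away. The peak's midpoint lay at -16.9 kb, upstream of the listed start but inside the body of a protein-coding gene. Col18a1 had 109 and 132 CPM in late KO, against 12.2 and 20.4 CPM in late WT (2.89 ± 0.37, edgeR adjusted p = 0.00394). Tmem158, a membrane protein induced by Ras signalling, had 44.4 and 40.9 CPM in late KO, against 2.45 and 2.02 CPM in late WT (4.25 ± 0.58, edgeR adjusted p = 0.00681). Cd63, a tetraspanin of late endosomes, had 11.4 and 13.2 CPM in late KO, against 0.70 and 0.649 CPM in late WT (4.16 ± 0.77, edgeR adjusted p = 0.0238). Both genes were near absent in late WT, with 63 and 19 reads over the 2 libraries. Rgs16, a regulator of G protein signalling, Arhgap23, a GTPase-activating protein, Csf2rb2, an IL-3 receptor subunit, and Lat2, an adaptor of mast and B cells, rose by log2 fold changes of 2.41, 2.38, 2.22 and 2.20.

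Falls were fewer than rises, and Myo6 and Gzmb held without any single library. Myo6, which encodes the minus-end-directed myosin VI, had 150 and 156 CPM in late Bcl11b KO, against 514 and 499 CPM in late WT (-1.73 ± 0.15, edgeR adjusted p = 0.000462). Its region, chr9:80265982-80266381, lay in the gene 101.1 kb from the start with a score of 88.0. Gzmb, the cytotoxic protease granzyme B, had 1480 and 1470 CPM in late KO, against 3700 and 3810 CPM in late WT (-1.35 ± 0.15, edgeR adjusted p = 0.00184). Both genes were lower in both late KO libraries. The region nearest to Gzmb, chr14:56306247-56306851, lay upstream at -44.3 kb with a score of 72.86.

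Spc24, a kinetochore subunit, Tk1, thymidine kinase, Casc5, a kinetochore scaffold, Cenpf, a centromere protein, and Tmpo, a lamina protein, fell by 1.41, 1.23, 1.09, 1.04 and 1.04 on the log2 scale. Ccr2, a chemokine receptor with 3 regions at -33.4, -31.4 and -1.4 kb, had 65.6 and 70.3 CPM in late KO, against 172 and 153 CPM in late WT (-1.26 ± 0.22, edgeR adjusted p = 0.0166). Ermn, an ERM-like cytoskeletal gene, and Aak1, an endocytic kinase, fell by 1.17 and 1.15. Of the 20 genes named for the late comparison, 4 stayed called whichever single library was left out, namely S100a4, Itm2c, Myo6 and Gzmb. For each of the other 16, omitting any of 3 or all 4 late libraries ended the call. Subtracting the receptor read rate ended the late calls of Tmem158, Col18a1, S100a5, Rgs16, Lat2, Tk1 and Casc5.

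**Figure D3:**
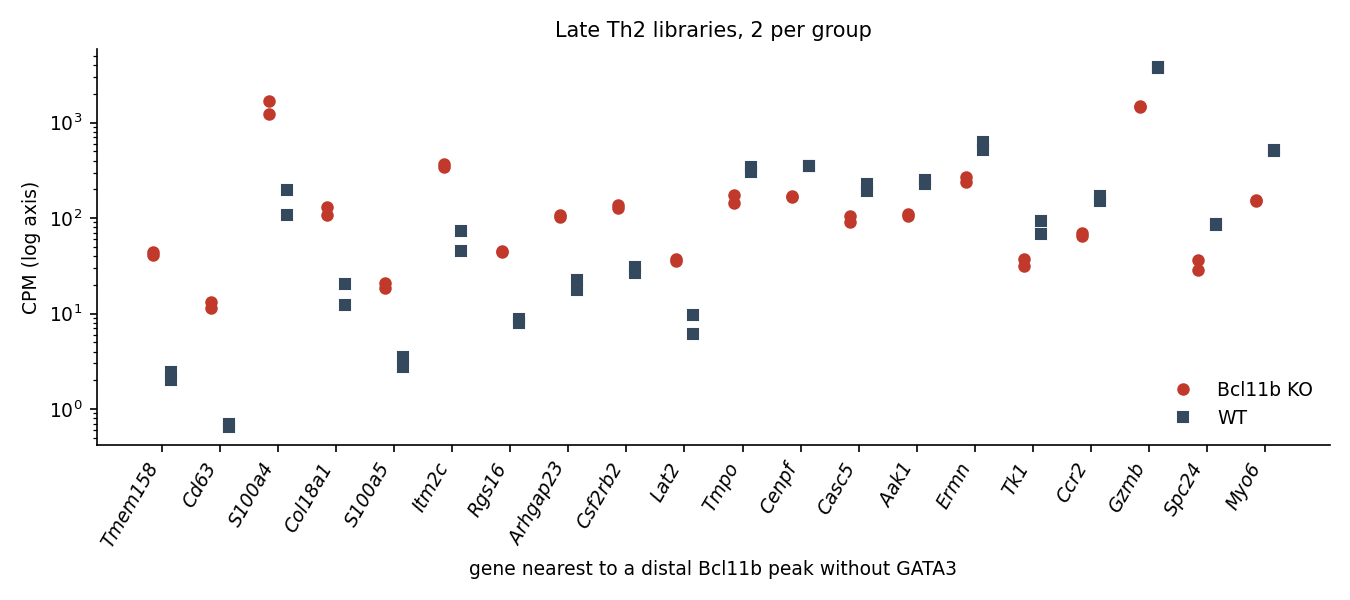
CPM (log axis) in the 4 late libraries of the Bcl11b experiment for the 10 largest rises and 10 largest falls among genes nearest to a distal Bcl11b peak without GATA3, each point 1 library, Bcl11b KO left of WT. KO and WT points do not overlap for any of the 20, which the naming rule required, and the rises reach 4.25 on the log2 scale while the deepest fall is 1.73.

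None of the 6 genes with most regions was called in Bcl11b KO at either stage. In late Bcl11b KO, Maf had 544 and 556 CPM, against 632 and 675 CPM in late WT (-0.25 ± 0.18, edgeR adjusted p = 0.713). Gata3 had 630 and 738 CPM in late KO, against 705 and 821 CPM in late WT (-0.16 ± 0.15, edgeR adjusted p = 0.83). Nfil3, Cd47, Satb1 and Bach2 had log2 fold changes of 0.06, 0.00, -0.27 and -0.40, none called. A missed threshold does not show equal levels, and the standard errors of the 6 late values were 0.14 to 0.25.

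With 2.22% of all genes called in late Bcl11b KO, a count of 0 or 1 in a list of 5 to 17 genes is close to the background and says nothing particular of the group. Of 11 Th2 genes with a region, carrying 43 regions, 0 rose and 0 fell, and their median log2 fold change was 0.10. Of 17 genes of T cell identity and receptor signalling, carrying 54 regions, 0 rose and 0 fell. Among 12 Th1 and cytotoxic genes with 1 region each, 9 were tested: Cd244, a receptor of natural killer and cytotoxic cells, rose and Gzmb fell. Of 11 tested genes of Th17, regulatory and follicular cells, Tnfrsf9, the costimulatory receptor 4-1BB, and Havcr2, the inhibitory receptor TIM-3, rose. Tnfrsf9 had 4 regions and 3020 and 3330 CPM in late KO, against 1060 and 1510 CPM in late WT (1.30 ± 0.20, edgeR adjusted p = 0.00995). Its call was lost when KO replicate 1, KO replicate 2 or WT replicate 1 was left out (edgeR adjusted p up to 0.0999), and with limma on both RPKM scales. Among naive and memory genes, Ccr2 fell. In the remaining lists, Il1r2, the decoy IL-1 receptor, was 1 of 12 cytokine receptor genes and rose, Bhlhe40, a regulator of cytokine production, was 1 of 15 tested activation factors and rose, and Mki67, the proliferation antigen, was 1 of 7 cell cycle genes and fell. The call of Il1r2 was lost with the replicate number as a block and with the receptor read rate subtracted. Of 5 glycolysis genes and 5 chromatin partners of Bcl11b, 0 were called. The lists hold genes with known roles, and their counts are descriptions.

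In early Bcl11b KO, 566 of the 2286 nearest genes (24.8%) were called, where all genes tested gave 21.0%, with 312 risen (13.6%, where all gave 11.0%) and 254 fallen (11.1%, where all gave 10.1%). These calls set early KO against the early WT libraries with few gene reads and many receptor reads. Subtracting the receptor read rate left 530 calls (23.2%, where all genes gave 19.7%), 475 of them among the 566, and the part of the low gene share was not tested. Fitting only the 4 early libraries gave 274 calls (12%, where all gave 9.26%). The RPKM values, which are scaled to all mapped reads, moved the median of all genes to 1.14 (log2 of RPKM plus 0.1) and gave 1507 calls, 1436 of them rises (65.9%, close to the 64.0% of all genes).

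S100a4 also rose in early Bcl11b KO, with 165 and 202 CPM in early KO and 2.93 CPM in each early WT library (5.96 ± 0.39, edgeR adjusted p = 2.29e-05). S100a5 had 192 reads over the early KO libraries and 0 over the early WT libraries. Against a floor of 3 reads over the WT group it was at least 32.5-fold higher in early KO. Lmna, nuclear lamin A, Phlda1, a pleckstrin homology gene, Ucp3, a mitochondrial carrier, and Tmbim1, a membrane protein of lysosomes, rose by 4.30, 4.30, 4.15 and 3.29 on the log2 scale. Myo6 fell as at the late stage, with 187 and 194 CPM in early KO and 935 and 893 CPM in early WT (-2.26 ± 0.15, edgeR adjusted p = 2.56e-05).

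Cyp2s1, a cytochrome P450, had the deepest early fall of the named genes, with 2.08 and 3.31 CPM in early KO, against 227 and 248 CPM in early WT (-6.46 ± 0.39, edgeR adjusted p = 1.9e-05). Adm, the vasodilator peptide adrenomedullin, Acp5, an acid phosphatase, Ppp1r3b, a glycogen-targeting phosphatase subunit, and Gbe1, the glycogen branching enzyme, fell by 5.86, 4.74, 4.23 and 3.97. Rn4.5s, a small RNA gene with many near-identical copies, fell by 4.10, a value that is uncertain because the authors' counting could split or merge the copies. Of the 5 glycolysis genes with a region, 4 fell (Gpi1, Ldha, Slc2a1 and Pfkp), where 10.1% of all genes fell. Ldha's call (edgeR adjusted p = 0.039) was lost with the replicate number as a block, with only the 4 early libraries, with no filter, and without any 1 of 4 libraries (early KO, early WT and late KO replicate 1, late KO replicate 2). Pfkp had 468 and 432 CPM in early KO, against 1290 and 976 CPM in early WT (-1.33 ± 0.19, edgeR adjusted p = 0.00116). Of the 11 Th2 genes, Pparg, Il10, Il5 and Il24 rose and 0 fell, where 11.0% of all genes rose. With the receptor read rate subtracted, 4 of the 11 rose and 1 fell. The cytotoxic T cell markers Cd8a and Cd8b1 summed to 16.2 to 17.6 RPKM in early Bcl11b KO and 3.31 to 3.40 RPKM in early WT, and the 4 B cell markers to 24.5 to 33.8 RPKM in early KO and 8.46 to 14.0 RPKM in early WT. Each of these 6 markers was higher in both early KO libraries. The median of all genes was itself 1.14 higher in early KO on log2(RPKM + 0.1), a shift that these sums keep. The part of these markers in the Th2 rises was not tested. Ets1, a T cell transcription factor with 7 regions, fell (-0.77 ± 0.16, edgeR adjusted p = 0.00802). On the RPKM scale Ets1 and Ldha changed sign, to 0.36 and 0.61, both below the shifted median of all genes, and Slc2a1 and Pfkp lost their calls. The effect of Bcl11b deletion differed between the stages, by the interaction term of the same fit, for 103 nearest genes (4.51%, where all genes gave 3.24%). It lay higher at the late stage for 59 (2.58%, where all gave 1.95%) and lower for 44 (1.92%, where all gave 1.29%). With the receptor read rate subtracted, 72 differed (3.15%, where all gave 2.22%).

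The Gata3 experiment asks how the same genes differ in cells labelled Gata3 KO, since these regions lie on no GATA3 peak. Gata3 mRNA was 1090 and 954 CPM in late Gata3 KO, against 1380 and 1330 CPM in late WT (-0.41 ± 0.11, edgeR adjusted p = 0.0361), so most of it remained, and 5 of 8 single libraries ended that call when left out. In early Gata3 KO it was 425 and 419 CPM, against 1180 and 1280 CPM in early WT (-1.54 ± 0.11, edgeR adjusted p = 5.8e-06). The deleted exons are not named, so mRNA does not measure the protein left in either. In late Gata3 KO, 488 of 2211 nearest genes tested (22.1%) were called, where all 10601 genes tested gave 14.0%, with 287 risen (13%, where all gave 8.44%) and 201 fallen (9.09%, where all gave 5.59%). In early Gata3 KO, 902 (40.8%) were called, where all gave 30.7%, with 385 risen (17.4%, where all gave 14.0%) and 517 fallen (23.4%, where all gave 16.8%). With the replicate number as a block, 771 (34.9%, where all gave 23.7%) were called in late Gata3 KO. For the genes whose only Bcl11b peaks are these regions, the share came near that of all genes, with 99 of 621 (15.9%) in late and 197 (31.7%) in early Gata3 KO. For nearest genes with no GATA3 peak of their own, 63 of 473 (13.3%) were called in late and 141 (29.8%) in early Gata3 KO, close to the shares of all genes (with the block, 112 or 23.7% in late Gata3 KO). In the Bcl11b experiment the genes of that kind gave 17 of 482 (3.53%, where all gave 2.22%) in late KO and 96 (19.9%, where all gave 21.0%) in early KO. Genes with 3 or more regions gave 74 of 211 (35.1%) in late and 124 (58.8%) in early Gata3 KO. Those genes also had more reads, with a median of 4950 over the 8 libraries against 2590 for all genes tested, and read depth was not tested apart from region number. Genes nearest to a distal Bcl11b peak with GATA3 gave 27.3% in late and 47.2% in early Gata3 KO.

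**Figure D4:**
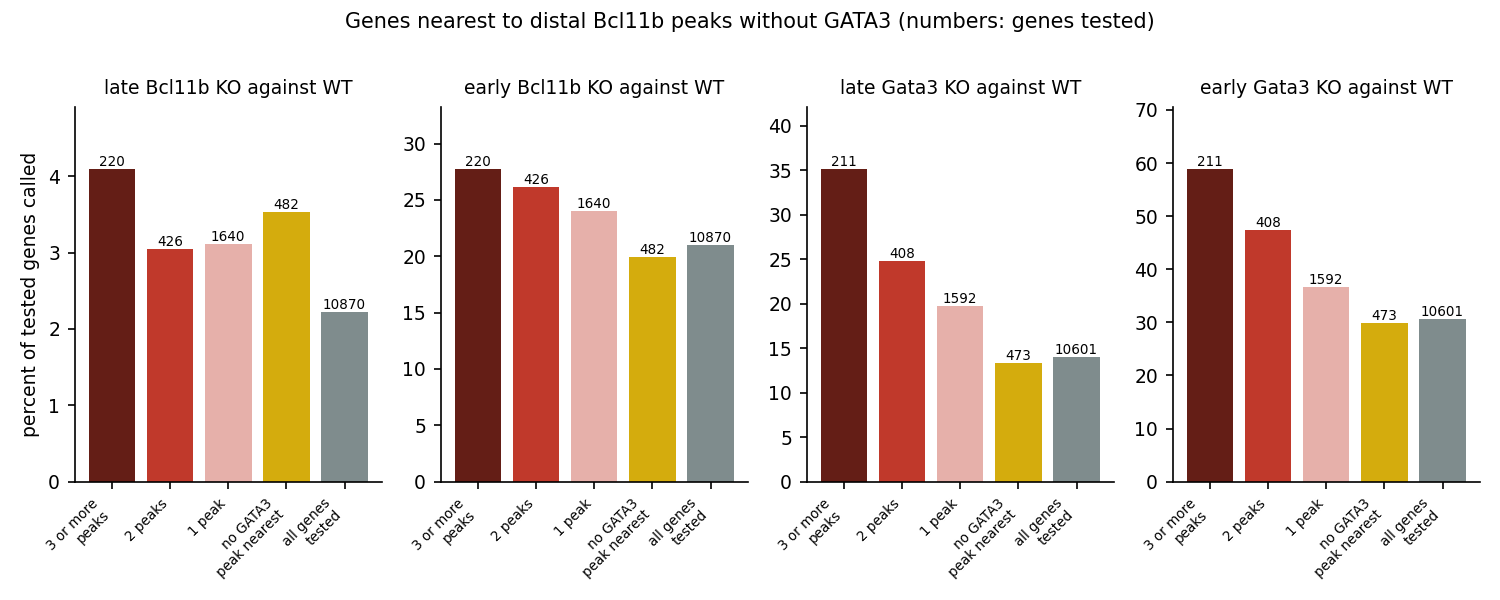
Percent of tested genes called (edgeR adjusted p under 0.05) in each KO comparison, for genes nearest to 3 or more, 2 or 1 distal Bcl11b peaks without GATA3, for those of them nearest to no GATA3 peak, and for all genes tested, with the number of genes tested above each bar. Each panel has its own percent axis from 0. In late Gata3 KO the bar for 3 or more regions reaches 35.1%, beside 13.3% for genes with no GATA3 peak and 14.0% for all genes.

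Th1 and cytotoxic genes gave more rises than falls in the Gata3 experiment. Of the 12 with a region, all tested, 6 rose and 0 fell in late Gata3 KO, and 9 rose and 1 fell in early Gata3 KO, where 8.44% of all genes rose at the late and 14.0% at the early stage. Eomes, the T-box factor of cytotoxic cells, had 5.48 and 9.43 CPM in late Gata3 KO, against 0.837 and 0.536 CPM in late WT (3.48 ± 0.41, edgeR adjusted p = 0.000478). In early Gata3 KO it had 204 and 207 CPM, against 1.22 and 0.376 CPM in early WT (8.01 ± 0.32, edgeR adjusted p = 2.9e-07), with 12 reads over the early WT libraries. Its region, chr9:118487865-118488933, lay 10.2 kb downstream of the start, scored 535.99 and was 23725 bp from the nearest GATA3 peak. Fasl, the death ligand of cytotoxic cells, had 308 and 330 CPM in early Gata3 KO, against 3.79 and 2.76 CPM in early WT (6.60 ± 0.24, edgeR adjusted p = 2.38e-07). Its region, chr1:161734703-161735646, was 53.3 kb downstream and scored 309.11. Cd8a and Cd8b1 together summed to 10.6 to 12.8 RPKM in early Gata3 KO and 3.29 to 4.26 RPKM in early WT, and to 6.74 to 8.16 RPKM in late Gata3 KO and 4.20 to 4.61 RPKM in late WT, and their part in these rises was not tested.

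Th2 genes with a region gave more falls than rises in Gata3 KO. Of the 11, 5 fell and 3 rose in late Gata3 KO, and 8 fell and 2 rose in early Gata3 KO, with the targeted gene Gata3 among the falls of both stages. Over all genes, 5.59% fell and 8.44% rose at the late stage and 16.8% fell and 14.0% rose at the early stage. Maf had 46.7 and 71.3 CPM in early Gata3 KO, against 261 and 206 CPM in early WT (-1.99 ± 0.24, edgeR adjusted p = 0.000168). Il4ra, the IL-4 receptor chain with 5 regions of 74.45 to 190.48 in score, went the other way, with 2100 and 1790 CPM in late Gata3 KO and 1000 and 763 CPM in late WT (1.14 ± 0.17, edgeR adjusted p = 0.00197). Of 9 tested Th17, regulatory and follicular genes, 8 fell and 1 rose in early Gata3 KO, where 16.8% of all genes fell and 14.0% rose. Batf, with its 5 regions, had 127 and 114 CPM in early Gata3 KO, against 698 and 520 CPM in early WT (-2.33 ± 0.19, edgeR adjusted p = 1.31e-05). Irf4, a partner of BATF with 4 regions, had 42.8 and 55.8 CPM in early Gata3 KO, against 208 and 266 CPM in early WT (-2.27 ± 0.25, edgeR adjusted p = 8.76e-05). Jun, an AP-1 subunit with 4 regions, rose (1.38 ± 0.19, edgeR adjusted p = 0.00041).

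Among the genes named for Bcl11b KO, Myo6 had 34.8 and 20.4 CPM in late Gata3 KO, against 1390 and 993 CPM in late WT (-5.47 ± 0.36, edgeR adjusted p = 1.74e-05), and it fell in all 4 comparisons. Ermn had 3.36 and 2.29 CPM in early Gata3 KO, against 155 and 157 CPM in early WT (-5.78 ± 0.27, edgeR adjusted p = 5.11e-07). Lat2, which rose in late Bcl11b KO, fell in late Gata3 KO (-2.04 ± 0.35, edgeR adjusted p = 0.00406). Col18a1, which also rose there, had 9 reads over the early Gata3 KO libraries and 557 over early WT (-6.13 ± 0.43, edgeR adjusted p = 4.45e-06). The Bcl11b and Gata3 experiments have separate WT libraries, and the difference between their effects was not tested.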

How the data were processed

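The authors deposited, per the file headers, 1 peak list per ChIP library in 1-based positions with reads, a score (a scaled negative log10 of p), fold enrichment (a ratio), a false discovery rate in percent and the nearest genes with distances, and 1 table per RNA library with read counts and RPKM per RefSeq transcript. Per the submitters' processing notes, tools were CASAVA 2.18, TopHat2 2.0.13, Bowtie, Novoalign and MACS 1.4.2 with build mm10; their roles and the peak-calling control are unstated in these sources.

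Peaks were classed by overlap of at least 1 bp and by the smallest listed distance (threshold 1000 bp), which runs from the peak's midpoint. The nearest gene was the listed gene with that distance. For RNA, the transcript with most reads per gene was kept, counts were tested with edgeR 4.0.16 (R 4.3.3; TMM, quasi-likelihood, Benjamini-Hochberg) over all 8 libraries of an experiment, and KO was compared with WT at each stage. edgeR's biological variation estimate (as a coefficient) was 0.281 for Bcl11b and 0.125 for Gata3 libraries. The fit was tested on simulated data. Alternatives were DESeq2 1.42.0 and, on log2(RPKM + 0.1) and log2(RPKM + 1), limma 3.58.1. In the Gata3 experiment the replicate number appears to pair the libraries. Deviations of same-numbered libraries correlated at 0.14 to 0.551 in all 6 pairs of groups, though no label says what a number marks. The Gata3 values given are from the fit without the replicate number as a block, unless the block is named. Replicates differed beyond sampling noise in all 8 groups.

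Named peaks were the 10 highest by score. Named genes were the 6 with most regions, the 10 largest rises and falls in late and 6 each way in early Bcl11b KO among called nearest genes with mean RPKM of at least 5 and non-overlapping groups, and up to 3 genes per list by region number. Unnamed gene models and receptor segments were left out. The regions, lists and rules were chosen with earlier results of these data known. Genes given outside the rule, as the only called members of a list, were chosen after their values were seen. One gene of the naive and memory list is not reported here.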

Additional observations from a re-analysis of the deposited data

Results flagged for a closer look

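The effect of Bcl11b deletion differed between the late and early stages for 103 of the 2286 nearest genes tested (4.51%, where all genes tested gave 3.24%), by the stage interaction in edgeR's fit with adjusted p-values. Every early value rests on the early WT libraries that stood apart in gene reads, and the number was 72 with the receptor read rate subtracted, and 127 and 208 without early WT replicate 1 and 2. The values below are the late minus the early log2 effect.

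For 3 genes that fell in late KO the late effect lay below the early one. Gzmb gave -1.40 (edgeR adjusted p = 0.00953), Ermn -1.28 (0.0419) and Aak1 -1.84 (0.00542). Aak1 fell in late KO (-1.15) and rose in early KO (0.69). Its early call was lost with only the 4 early libraries, and without early KO replicate 1 or early WT replicate 1. Among late rises, Cd63 gave 5.06 (edgeR adjusted p = 0.0314) and Arhgap23 3.27 (0.0174), with early log2 fold changes of -0.90 and -0.89 that were not called. S100a4 rose at both stages, by less at the late one, with a difference of -2.70 (edgeR adjusted p = 0.0191). S100a5 gave -7.04 (edgeR adjusted p = 0.0493), a fitted value set by 0 reads in early WT and no measure of size.

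Of the genes named for the early stage, Phlda1 gave -4.09 (edgeR adjusted p = 0.00573) and Ccnd2, cyclin D2, -1.19 (0.0378). Ccnd2 had 2050 and 1580 CPM in early KO and 483 and 601 CPM in early WT. The early falls were smaller or not called at the late stage: Cyp2s1 gave 3.78 (edgeR adjusted p = 0.00522), Acp5 4.00 (0.00761), Ppp1r3b 4.06 (0.00288) and Gbe1 3.55 (0.00812). Adm gave 8.74 (edgeR adjusted p = 0.00573), with 8 reads over late KO and 1 over late WT, so its late level was not measurable at this depth.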

How the results depend on the processing

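The number of regions was 5085 when a GATA3 peak within 500 bp counted, 7015 when at least 50% of the Bcl11b peak had to overlap, and 1395 when the Bcl11b score had to be at least 100. Among nearest genes, the 73 late Bcl11b calls became 174 with DESeq2, 442 with only the 4 late libraries, 30 with limma on log2(RPKM + 0.1), 45 with no filter on low values, 23 among genes with no other Bcl11b peak, and 7 to 143 when 1 library was left out. The 566 early Bcl11b calls became 274 with only the 4 early libraries, 1507 and 1490 with limma at pseudocounts of 0.1 and 1, 149 among genes with no other Bcl11b peak, and 402 to 606 without 1 library. The 488 late Gata3 calls became 99 among genes with no other Bcl11b peak (15.9%, where all genes gave 14.0%) and 291 to 484 without 1 library (312 and 291 without late WT replicate 1 and 2). The 902 early Gata3 calls became 197 (31.7%, where all gave 30.7%) and 635 to 943 under the same choices. The 103 stage differences became 251 with DESeq2, 1262 and 1297 with limma, 28 among genes with no other Bcl11b peak and 8 to 208 without 1 library (208 without early WT replicate 2, 8 to 21 without a late library). Smaller sets give fewer calls by construction, and the cause of the other moves was not tested.

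With the replicate number as a block, the counts were 56, 526, 771, 1121 and 62 in the same order. In the Bcl11b experiment the deviations of same-numbered libraries correlated at 0.283 between late KO and late WT. The other pairs of groups gave -0.066 to 0.01. What same-numbered late libraries share is not stated and was not tested. No named gene of the Gata3 experiment lost its call under the block. With it, Th1 and cytotoxic genes gave 8 rises and 1 fall in late Gata3 KO, and 11 and 1 in early Gata3 KO. Th2 genes gave 3 rises and 6 falls in late Gata3 KO, and 2 and 8 in early Gata3 KO.

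On log2(RPKM + 0.1) and log2(RPKM + 1), where the median of all genes in early Bcl11b KO moved to 1.14 and 0.86, early effects changed sign for Maf (1.06, 0.92), Nfil3 (0.71, 0.71), Cd47 (1.07, 1.06), Tmpo (0.64, 0.58), Batf (0.93, 0.92), Ets1 (0.36, 0.35), Irf4 (0.93, 0.91), Cdk6 (1.09, 1.05), Ldha (0.61, 0.61), Rcor1 (1.12, 0.96) and Ep300 (1.00, 0.95). Of the other values of named genes, 2950 kept their side of the threshold, 202 lost and 126 gained a call. A sign change between values that were both uncalled counted as kept. Motif windows around summits were not run, since no genome was used. Early results carry the shallowest WT libraries.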
